A study of Mus musculus with 36 samples.

Results

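Cultures of bone-forming cells from mice that lack the microRNA gene Mir324 (null) were compared with the same cultures from wild-type (WT) controls. The libraries were chosen by their titles and labels: 6 null and 6 WT osteoblast cultures, 12 of the 36 RNA-seq libraries of the series. The others are marrow macrophages and RANK-L cultures of the same genotypes and serve here only as a reference for marker levels. Mice of both genotypes were 20 weeks old. Long bones were cleared of marrow, cut into chips and digested with collagenase, and cells grew out of the chips for several weeks. They were then plated in osteogenic medium with 2 mM β-glycerophosphate and 50 µg/mL L-ascorbic acid, and RNA was taken after 18 days. The labels name the genotypes "wild-type control" and Mir324-null and give no strain, allele, sex or batch. They do not say whether libraries of a group came from separate mice, so each p-value measures only the spread between these libraries. Cells that grow out of bone chips are a mixed outgrowth and not a sorted population.

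MicroRNAs are short RNAs that guide Argonaute proteins to messenger RNAs, mainly through pairing of the seed near their 5′ end with sites in the 3′ UTR, and usually lower the target's level. Osteoblasts secrete type I collagen and the other proteins of bone matrix, mineralize that matrix with the help of phosphatases, and control the formation of osteoclasts through secreted cytokines. Runx2 is the transcription factor that commits mesenchymal cells to the osteoblast lineage. The title of the series says that miR-324 acts in both osteoblasts and osteoclasts. The comparison shows how the transcriptomes of these null and WT osteoblast cultures differ.

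The deleted hairpin lies on chr11:70012043-70012131, plus strand (RefSeq, GRCm38.p6), and gives a mature RNA from each arm. Both are shown because their seeds, bases 2 to 8 in capitals, define the sites counted in the 3′ UTRs.
miR-324-5p: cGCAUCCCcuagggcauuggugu
miR-324-3p: cCACUGCCccaggugcugcu
The sites complementary to these seeds are GGGATGC for the 5p arm and GGCAGTG for the 3p arm. Runx2 has been described as a miR-324 target, and its longest annotated 3′ UTR (GENCODE M21, GRCm38) holds 1 site for the 5p arm. The site is printed 5′ to 3′ as it stands in the transcript, with the 7 bases of the match in capitals.
Runx2, 5p site: agggaatagagGGGATGCattagtgcctaa
No value for miR-324 was analysed here, and the deletion was taken from the labels as given.

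The 12 libraries held 17048358 to 23598922 estimated counts. Bone genes were high: in TPM (a level scaled by transcript length and library) Col1a1 had a median of 8347 in WT osteoblast cultures against 4.03 in WT marrow macrophages, and bone sialoprotein (Ibsp) 10561 against 0.0947. The cultures also held myeloid transcripts. The macrophage receptor Csf1r reached 249 TPM in WT and 289 TPM in null osteoblast cultures, against 671 TPM in WT macrophages. The osteoclast protease Ctsk reached 2248 and 3077 TPM, against 16398 TPM in WT RANK-L cultures. Defining genes of red cells (Hbb-bs), T cells (Cd3e), neutrophils (Ly6g) and mature osteocytes (Sost) had 0 counts in all 12 libraries, but other members of these lists were present. In CPM (counts scaled to library size with TMM factors), summed levels in WT and null libraries were 17.4 to 25.7 and 9.40 to 15.4 for neutrophil markers, 11.4 to 20.0 and 8.12 to 17.8 for lymphoid markers, 67.8 to 95.9 and 54.8 to 79.2 for osteocyte markers, mostly Pdpn, and under 1 for red cell markers. The biological coefficient of variation was 12.8% in WT and 18.2% in null libraries.

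Many genes differed between the genotypes, and the difference went with transcript length. Of 13607 genes tested, 4420 (32.5%) passed an adjusted p of 0.05 in edgeR's quasi-likelihood test with Benjamini-Hochberg adjustment. In null cultures 2115 (15.5%) were higher and 2305 (16.9%) were lower. Long transcripts tended to be higher and short ones lower in every null library, so a second fit removed each library's trend with length. With this length offset 2087 genes (15.3%) passed, 982 higher (7.22%) and 1105 lower (8.12%). In both fits and in the same direction 821 genes were higher (6.03%) and 843 lower (6.2%), which is 37.6% of the calls of the first fit and 79.7% of those of the second. All 6 null libraries lay above all 6 WT libraries in 886 genes (6.51%) and below them in 1285 (9.44%). Values below are CPM as mean ± SD over 6 libraries or as lowest, median and highest library. Fold changes are null against WT on the log2 scale, and a gene "rose" or "fell" if it passed in the first fit. Counts of members given below for each gene list are to be read against these shares of all genes, called the background. The log2 fold change with the offset stands beside it, where needed in brackets after the word offset, and these genes also passed with the offset unless it is said that they did not. In a mixed culture, fewer cells of a type and less RNA per cell cannot be told apart.

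**Figure D1:**
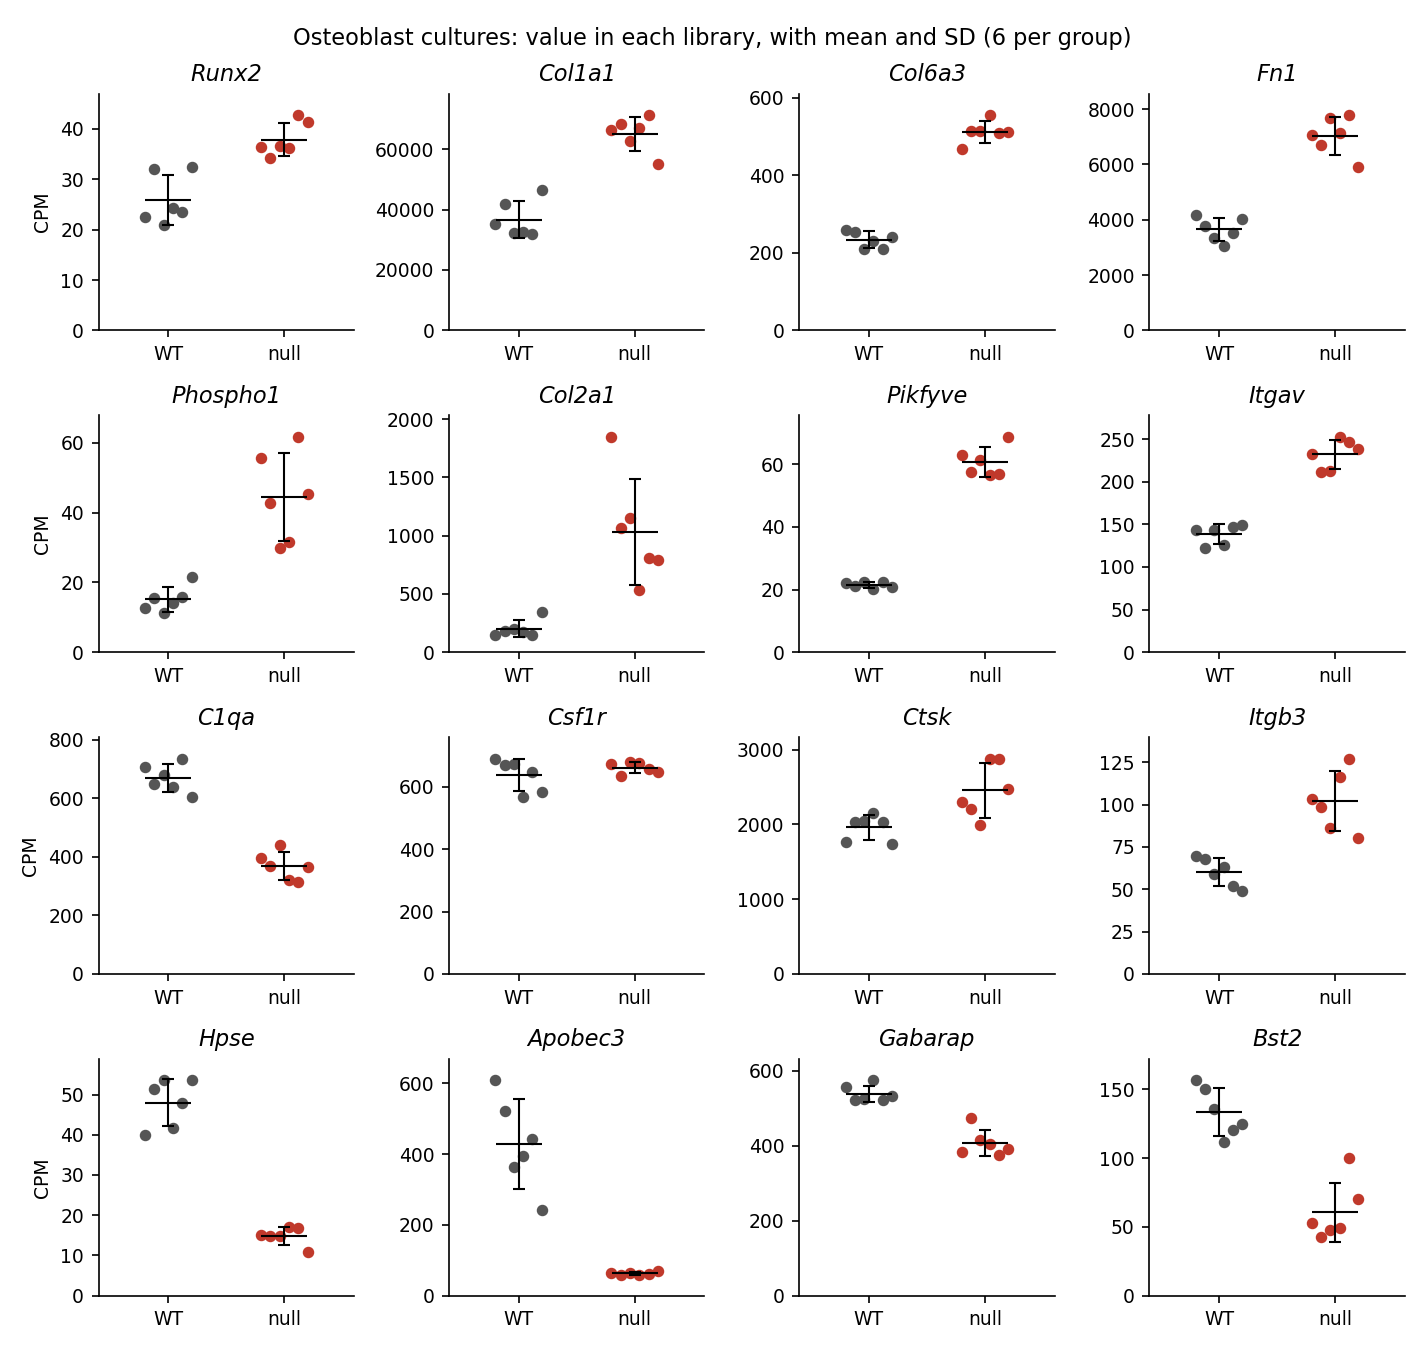
CPM of 16 genes in each of the 6 WT (grey) and 6 null (red) osteoblast libraries, with bars for the mean and SD; each vertical axis starts at 0. Matrix genes such as Col6a3 and Fn1 lie higher in all null libraries, C1qa, Hpse and Apobec3 lie lower in all of them, and Csf1r and Ctsk overlap in CPM.

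The 12 higher genes with the smallest p in the first fit, among those that passed both fits, included several large proteins. They belong to the cytoskeleton and the membrane system, with the collagen chain Col6a3 from the matrix. This ranking carries the trend with length, in which long transcripts tended to be higher and short ones lower. Pikfyve makes the phosphoinositide that controls endosome and lysosome traffic. It had 20.1, 21.5 and 22.4 CPM in WT libraries and 56.5, 59.5 and 68.8 CPM in null libraries, so the groups were far apart, and its log2 fold change was 1.5 (SE 0.06, edgeR adjusted p 4.72e-09) and 1.12 with the length offset. Its partners in the same complex did not pass, Fig4 at 27.3 ± 2.67 against 25.9 ± 2.50 CPM and Vac14 at 5.92 ± 0.872 against 5.32 ± 1.42 CPM. Col6a3, a chain of the microfibrillar collagen VI, rose from 234 ± 21.5 to 512 ± 27.6 CPM (log2 fold change 1.13, 0.88 with the offset). Itgav, the αV integrin subunit through which cells hold on to vitronectin and bone sialoprotein, went from 122, 144 and 149.7 CPM in WT to 211, 235 and 253 CPM in null. Its log2 fold change was the same in both fits, 0.75. The splicing factor Prpf38b rose by 1.03 and by 1.09 with the offset.

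The cytoskeletal members of this group were Myo10, the myosin of filopodia (log2 fold change 0.76, 0.42 with the offset), Macf1, which links microtubules to actin (0.80 and 0.59), and Ank3, an adaptor between membrane proteins and spectrin (0.88 and 0.69). Ahnak, a giant scaffold protein, rose by 0.72, and by 0.24 with the offset. Tnrc6b, an Argonaute-binding protein of microRNA silencing, rose by 0.88, and by 0.29 with the offset. Igf2r, which sorts lysosomal enzymes and clears insulin-like growth factor II, rose from 49.7 ± 4.2 to 84.6 ± 6.07 CPM (offset 0.39). The transcription factor Runx1, a relative of Runx2, rose from 93.1 ± 2.65 to 147 ± 12.7 CPM (log2 fold change 0.65, 0.44 with the offset). Ammecr1 rose by 0.77 and 0.51. In all 12 genes every null library lay above every WT library, and all 12 passed in each of the 12 fits that left out a library. The genes were picked for their small p, so both statements follow largely from the choice.

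The 12 lower genes chosen the same way held enzymes, immune genes and short housekeeping transcripts, and the trend with length enters their ranking too. Apobec3, a cytidine deaminase that restricts retroviruses, had 243, 419 and 609 CPM in WT libraries and 57.4, 62.1 and 70.9 CPM in null libraries. The WT libraries varied widely while the null libraries were close together, and the log2 fold change was -2.78 (SE 0.19, edgeR adjusted p 2.74e-06), -2.45 with the offset. Heparanase (Hpse), which cuts heparan sulfate chains, had 40.0, 49.7 and 53.5 CPM in WT and 10.7, 15 and 17.0 CPM in null, a log2 fold change of -1.69 (-1.77 with the offset). Rpe, the ribulose-phosphate epimerase of the pentose phosphate pathway, fell from 49.0 ± 4.89 to 19.7 ± 2.29 CPM, with nearly equal log2 fold changes in both fits (-1.31 and -1.32). The secreted guidance factor Sema3c fell from 32.1 ± 4.02 to 15.7 ± 1.03 CPM (offset -1.23).

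Several of the lower genes belong to myeloid cells: Ms4a7, a macrophage membrane protein, fell from 845 ± 67.2 to 451 ± 36.8 CPM (offset -0.67), the adaptor Tyrobp from 377 ± 24.5 to 237 ± 6.18 CPM (offset -0.30), and the C-type lectin Clec4d from 89.2 ± 6.07 to 49.8 ± 5.59 CPM (offset -0.66). The ferritin light chain gene Ftl1, which stores iron, fell from 16272 ± 975 to 10001 ± 461 CPM (log2 fold change -0.70, -0.44 with the offset). Gyg, the primer of glycogen synthesis, fell by 0.75 on the log2 scale, the ciliary GTPase Arl3 by 0.76, Tmem106a by 0.76 and the ribosomal protein gene Rps15a by 0.68. With the offset these 4 values were -0.65, -0.46, -0.66 and -0.35. In each of the 12 lower genes every null library lay below every WT library, and each passed in all 12 fits that left out a library. As with the higher genes, this follows largely from the choice. Ftl1 and Rps15a have near-identical copies in the genome, and their counts may be split among them.

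Osteoblast genes were on balance higher in the null cultures, although several of the standard markers did not pass. Of 16 osteoblast markers tested, 8 rose and 1 fell (background 15.5% higher and 16.9% lower), and with the offset 7 rose and 1 fell. Without null replicate 3, 2 fell. The median log2 fold change was 0.55 and 0.46, against 0.00 over all genes in either fit. Their summed level was 61754 to 88332 CPM in WT and 104090.5 to 125587 CPM in null libraries, with Col1a1 the most abundant member. Runx2 had 20.9, 23.9 and 32.3 CPM in WT libraries and 34.2, 36.5 and 42.8 CPM in null libraries. The lowest null library lay just above the highest WT library, and the log2 fold change was 0.55 (SE 0.11, edgeR adjusted p 0.00163), or 0.33 with the offset, at the edge of the threshold (edgeR adjusted p 0.04999). With the offset it missed the threshold in 10 of the 12 fits that left out a library, all but those without WT replicate 2 or 6, and with an offset for length and GC content (edgeR adjusted p 0.0502). Col1a1, the main collagen chain of bone, had 31774, 33879.8 and 46536 CPM in WT and 55037, 66704 and 71282 CPM in null. The groups did not overlap, and the log2 fold change was 0.83 (0.54 with the offset).

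Sp7 (osterix), the transcription factor that acts after Runx2, had 17.1, 21.5 and 33.4 CPM in WT and 19.9, 33.0 and 60.2 CPM in null, with overlap and an edgeR adjusted p of 0.099. Alkaline phosphatase (Alpl) had 157, 165 and 394 and 212, 309 and 397 CPM and did not pass either, with an edgeR adjusted p of 0.107. The median of Alpl was higher in null, but WT replicate 6, at 394 CPM, lay just below the highest null library. Osteocalcin (Bglap), a late marker, was low, at 8.69, 17.7 and 22.3 CPM in WT and 4.35, 9.41 and 23.2 CPM in null, and its log2 fold change of -0.43 (SE 0.37) became -0.01 with the offset. Osteomodulin (Omd), a small proteoglycan of bone, was the only osteoblast marker that fell, from 122 ± 25.7 to 73.9 ± 13.3 CPM (offset -0.59).

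Among genes that act in mineral deposition a few members rose widely while the list as a whole moved less than the osteoblast markers. Of 14 mineralization genes tested, 5 rose and 1 fell (background 15.5% and 16.9%). With the offset 4 rose and 0 fell (background 7.22% and 8.12%), and the medians were 0.24 and 0.16. Without null replicate 3, 2 fell. Phospho1, the phosphatase that supplies phosphate inside matrix vesicles, had 11.3, 14.8 and 21.7 CPM in WT and 30.0, 44.1 and 61.7 CPM in null. Every null library lay above every WT library, and the log2 fold change was 1.55 (SE 0.20, edgeR adjusted p 0.000128), 1.76 with the offset. Smpd3, a sphingomyelinase of mineralizing cells, had 3.52, 7.62 and 17.0 CPM in WT and 14.5, 59.3 and 86.9 CPM in null. The spread was wide and the lowest null library lay within the WT range, with a log2 fold change of 2.57 (SE 0.48, edgeR adjusted p 0.00195), 2.35 with the offset.

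Bone sialoprotein (Ibsp), which nucleates mineral, rose from 14023 ± 2268 to 23247 ± 6079 CPM (offset 0.78) with overlap between the groups. Phex, the endopeptidase that restrains phosphate loss, was scarce and rose from 0.315 ± 0.157 to 1.14 ± 0.305 CPM (offset 1.73) without overlap. Of the osteocyte markers only 2 had enough counts: Dmp1 at 2.32 ± 1.79 against 9.17 ± 7.62 CPM (edgeR adjusted p 0.0379, and 0.0665 with the offset) and Pdpn, which fell from 82.3 ± 10.5 to 56.9 ± 8.53 CPM (offset -0.44).

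Collagen genes were broadly higher in the null cultures. Of 27 collagen chains tested, 22 rose and 0 fell, and with the offset 17 rose and 0 fell. Without WT replicate 1, 1 chain fell. The medians were 0.59 and 0.41, and in 16 chains every null library lay above every WT library (background 6.51%). These are long transcripts, with a median of 4899 bases, and CPM is not corrected for length. Among all genes of 3997 to 5063 bases, 33.9% were higher in the first fit and 9.04% with the offset. The summed level was 60643 to 83518 CPM in WT and 94576 to 118345 CPM in null libraries. Col1a2, the partner of Col1a1 in type I collagen, rose from 11297 ± 1855 to 16899 ± 1050.4 CPM (offset 0.33). Col12a1, which decorates collagen fibrils and is induced by load, had 790.3, 869.7 and 1079.7 CPM in WT and 1267, 1434 and 1632 CPM in null (log2 fold change 0.71, 0.50 with the offset). Its relative Col14a1 rose from 43.9 ± 8.22 to 81.5 ± 8.90 CPM (offset 0.67). Col11a2, named after its values were seen, went from 4.69, 6.49 and 21.8 CPM to 23.2, 81.0 and 151 CPM, a log2 fold change of 3.23 (SE 0.51) that was the largest of the 27 chains. Its null libraries differed among themselves several times over, yet none reached down to the WT range.

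Enzymes that modify and assemble collagen moved less. Of 24 tested, 9 rose and 1 fell (background 15.5% and 16.9%). With the offset 5 rose and 0 fell (background 7.22% and 8.12%), and the medians were 0.21 and 0.10. Without null replicate 6, 14 rose, without WT replicate 3 or 4, 6 rose, and none fell without WT or null replicate 4. Bmp1, the protease that trims procollagen, rose from 73.7 ± 11 to 114 ± 16.5 CPM (offset 0.49), the cross-linking oxidase Loxl4 from 5.32 ± 0.392 to 8.44 ± 0.520 CPM (offset 0.55), the prolyl hydroxylase P3h1 from 249 ± 15.8 to 293 ± 11.2 CPM (offset 0.18) and the collagen chaperone Fkbp10 from 412 ± 53.4 to 505 ± 22.7 CPM (offset 0.28). All 4 passed in both fits.

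Among 25 glycoproteins of the matrix, 15 rose and 2 fell (background 15.5% and 16.9%). With the offset 8 rose and 3 fell (background 7.22% and 8.12%), and the medians were 0.45 and 0.25. Their median transcript length was 4052 bases, against 2458 bases for all genes. Without WT replicate 4, 1 fell. Fibronectin (Fn1), on which collagen fibrils are assembled, had 3056, 3657 and 4168 CPM in WT and 5897, 7100.3 and 7788 CPM in null. The groups were well separated, with a log2 fold change of 0.95 (SE 0.09, edgeR adjusted p 5.66e-06), 0.65 with the offset. The basement membrane genes Hspg2 (perlecan) and Nid2 (nidogen) rose from 69.2 ± 10.9 to 129 ± 7.81 CPM (offset 0.73) and from 51.0 ± 8.68 to 89.7 ± 9.83 CPM (offset 0.59). Fibrillin (Fbn1) rose by 0.69, but with the offset its value was 0.26 and the edgeR adjusted p 0.068.

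Of 10 small leucine-rich proteoglycans, which bind collagen fibrils, 1 rose and 1 fell in either fit (medians 0.01 and -0.03). The background was 15.5% and 16.9%, and 7.22% and 8.12% with the offset. Without WT replicate 1 or 2 or null replicate 2, 2 fell. Prelp rose from 268 ± 57.5 to 524 ± 76.5 CPM (offset 0.89), and Omd was the member that fell. Lum stood at 2416 ± 486 against 1850.1 ± 366 CPM and Bgn at 1383 ± 77.4 against 1508 ± 144 CPM, and neither passed. Of 18 matrix proteases and inhibitors 6 rose and 4 fell (background 15.5% and 16.9%). With the offset 2 rose and 2 fell (background 7.22% and 8.12%), and the medians were 0.16 and 0.12. Without WT replicate 2 the counts of the first fit were 3 and 2. In that fit 2 fell without WT replicate 4 or 5 or null replicate 1, 2 or 3. The inhibitor Timp3 fell from 508 ± 62.0 to 408 ± 41.0 CPM (offset -0.52) in both fits. Timp1 fell by 0.48 on the log2 scale and did not pass with the offset (-0.18). The protease Adamts12 rose from 13.7 ± 1.71 to 22.8 ± 3.73 CPM (offset 0.43).

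Cartilage genes showed some of the widest differences. Of 11 chondrocyte markers tested, 6 rose and 2 fell (background 15.5% and 16.9%). With the offset 5 rose and 1 fell (background 7.22% and 8.12%), and the medians were 0.88 and 0.88. Only 1 fell in each fit that left out a library other than WT replicate 1 or null replicate 4. Col2a1, the collagen of cartilage, had 147, 179 and 346 CPM in WT and 535, 936 and 1847 CPM in null. The null libraries spread widely, but all of them exceeded the WT range, with a log2 fold change of 2.37 (SE 0.31, edgeR adjusted p 0.000213), 2.15 with the offset. Aggrecan (Acan), the large proteoglycan of cartilage, had 37.5, 48.6 and 61.7 CPM in WT and 94.4, 119 and 156 CPM in null, again without overlap (offset 0.95). Hapln1, which ties aggrecan to hyaluronan, rose from 11.1 ± 2.99 to 44.6 ± 23.9 CPM (offset 1.78). Chondromodulin (Cnmd), a cartilage protein that blocks vessel growth, went the other way, from 5.03, 8.78 and 18.6 CPM in WT to 0.598, 1.93 and 3.41 CPM in null (log2 fold change -2.31, -2.14 with the offset). The summed level of the list was 524 to 1083 CPM in WT and 1236 to 2865 CPM in null libraries, without overlap.

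**Figure D2:**
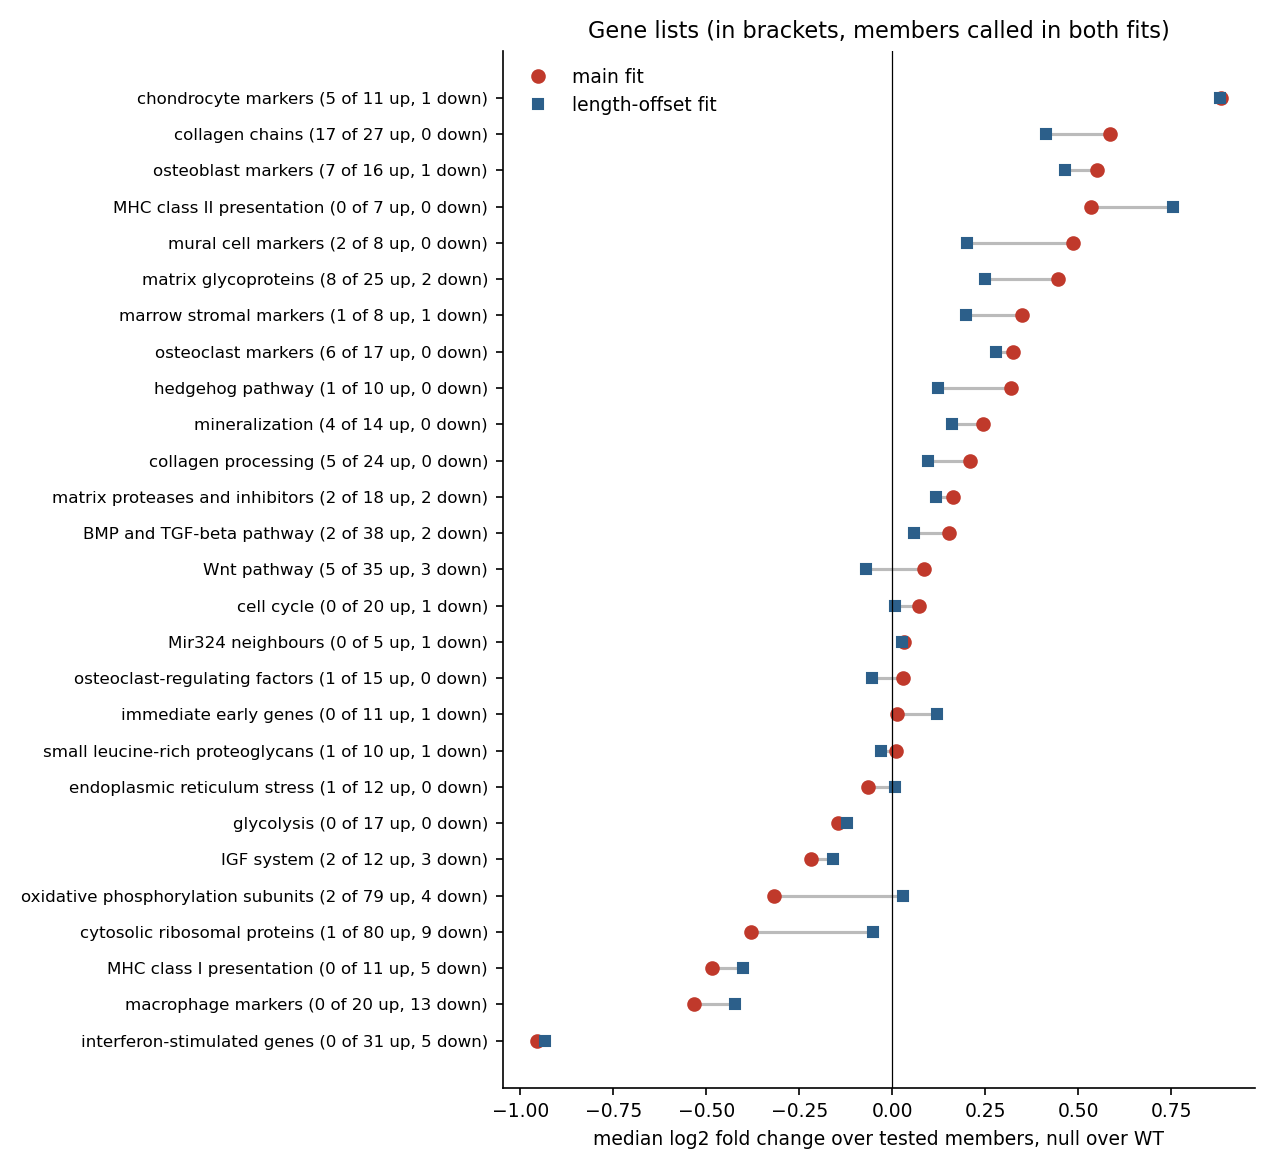
Median log2 fold change, null over WT, of each gene list with at least 5 tested members, in the first fit (red circles) and with the length offset (blue squares); brackets count members that passed both fits. Chondrocyte, collagen and osteoblast lists lie to the right in both fits, macrophage and interferon lists to the left, and the ribosomal and oxidative phosphorylation lists move to near 0 with the offset.

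Among myeloid genes, most macrophage markers fell and a part of the osteoclast markers rose. Of 20 macrophage markers tested, 0 rose and 14 fell (background 16.9% lower), and with the offset 0 rose and 14 fell. The medians were -0.53 and -0.42, 9 members had every null library below every WT library (background 9.44%), and the summed level was 17710.5 to 21498 CPM in WT and 9801 to 13556 CPM in null libraries. C1qa, a subunit of the complement starter C1q made by tissue macrophages, had 605, 665 and 736 CPM in WT and 313, 367 and 442 CPM in null. Its groups were clearly apart, with a log2 fold change of -0.86 (SE 0.08, edgeR adjusted p 6.2e-06), -0.62 with the offset. C1qc fell from 1541 ± 178 to 818 ± 92.5 CPM (offset -0.71), and the Fc receptor chain Fcer1g from 491 ± 34.4 to 273 ± 33.9 CPM (offset -0.50).

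Csf1r, the receptor on which macrophages and osteoclast precursors depend, did not follow. In TPM, which was not tested, its levels did not overlap, at 208 to 260 in WT and 262 to 295 in null libraries. It had 567, 658 and 691 CPM in WT and 635, 665 and 681 CPM in null, with overlap. The log2 fold change was 0.05 (SE 0.06), and -0.10 with the offset, and it did not pass. The pan-leukocyte gene Ptprc, named after its values were seen, stood at 89.1 ± 8.60 against 90.2 ± 6.85 CPM, also without passing.

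Of 17 osteoclast markers, 8 rose and 0 fell (background 15.5% higher), and with the offset 6 rose and 0 fell (medians 0.32 and 0.28). Their summed level was 4622 to 5852 CPM in WT and 5467 to 8464 CPM in null libraries, with overlap. Ctsk, which degrades collagen in resorbed bone, had 1744, 2034 and 2147 CPM in WT and 1986, 2388 and 2881 CPM in null. The CPM ranges overlapped, and the log2 fold change was 0.32 (SE 0.09, edgeR adjusted p 0.0147), 0.47 with the offset. In TPM the ranges of Ctsk did not overlap, at 1940 to 2311 in WT and 2513 to 3618 in null libraries. Itgb3, which pairs with the product of Itgav to attach osteoclasts to bone, had 49.0, 61.1 and 69.5 CPM in WT and 80.6, 101 and 127 CPM in null, without overlap (offset 0.48). Mmp9, a gelatinase of osteoclasts, rose from 894 ± 111 to 1446 ± 402 CPM (offset 0.68), the kinase Src from 23.1 ± 3.32 to 36 ± 9.04 CPM (offset 0.52), and the proton pump subunit Atp6v0d2 from 208 ± 19.6 to 274 ± 41.5 CPM (offset 0.39). Whether the myeloid share of the cultures plays a part in other results was not tested.

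Of 15 factors through which osteoblasts act on osteoclasts, 3 rose and 0 fell, and with the offset 1 rose and 0 fell (medians 0.03 and -0.05). These shares are near those of all genes, of which 15.5% were higher and 7.22% with the offset. Without null replicate 6, 1 factor also fell. Cxcl12, the chemokine that holds blood-forming cells in marrow, had 177, 184 and 242 CPM in WT and 255, 314 and 389 CPM in null. No null library was as low as the WT range, and the log2 fold change was 0.69 (SE 0.10, edgeR adjusted p 0.000243), 0.71 with the offset. M-CSF (Csf1) and Wnt5a rose by 0.30 and 0.36, and neither passed with the offset. RANK-L (Tnfsf11) stood at 30.1 ± 8.19 against 26.4 ± 12.3 CPM and its decoy receptor osteoprotegerin (Tnfrsf11b) at 132 ± 16.1 against 153 ± 18.3 CPM. Both were named after their values were seen, and neither passed.

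Interferon-stimulated genes were lower in 5 of the 6 null libraries. Of 31 tested, 0 rose and 6 fell, with the offset 0 rose and 5 fell, and all 31 had a negative log2 fold change (medians -0.96 and -0.93). Over all genes 16.9% were lower, and 8.12% with the offset. With all libraries the share of members that fell was thus near the background in the first fit and above it with the offset. The median over the list, relative to the WT mean, was -1.65, -1.46, -1.63 and -1.86 in null replicates 1 to 4 and -0.61 in replicate 6, while replicate 5 stood at 0.19, inside the WT range of -0.39 to 0.30. Without null replicate 5, 30 of the 31 genes fell and the median was -1.40, so that this library decides the count. Bst2 (tetherin), which holds budding viruses on the cell, had 112, 130.3 and 157 CPM in WT and 42.6, 51.0 and 100.1 CPM in null. It was the only member without overlap, with a log2 fold change of -1.14 (SE 0.19, edgeR adjusted p 0.000931), of -0.81 with the offset, and of -1.34 without null replicate 5. Oas1a, a sensor of double-stranded RNA, had 34.0, 44.3 and 60.4 CPM in WT and 10.4, 15 and 40.3 CPM in null, and only replicate 5 entered the WT range (offset -1.09). Irf9, a subunit of the factor that switches on these genes, fell from 54.9 ± 7.56 to 33.5 ± 11.2 CPM (offset -0.71) and Trim30a from 23.1 ± 3.17 to 12.6 ± 5.25 CPM (offset -0.95).

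The promoters of this list were looked at because its members moved together. RefSeq promoters (GRCm38.p6, 250 bases before to 50 after the start) were matched for 21 of the 31 genes. A core of the interferon-stimulated response element, GAAA and again GAAA with any 2 bases (NN) between them, was searched on both strands, counting overlapping matches. It stood in 14 of the 24 promoters of the list (58.3%) and in 3.44% of 32851 promoters. It stood in 2 of 10 promoters of MHC class I genes (20%). None of 23 promoters of collagen chains and none of 14 of macrophage markers held it. Promoters of the interferon list were counted whether or not the gene fell. The list was made of genes known to respond to interferon, so its high share follows largely from that choice. Oas1a, a member that fell, and Isg15, a ubiquitin-like protein chosen for its run of overlapping matches after its values were seen, are shown with the matched bases in capitals.
Oas1a, chr5:120907476-120907775, minus strand: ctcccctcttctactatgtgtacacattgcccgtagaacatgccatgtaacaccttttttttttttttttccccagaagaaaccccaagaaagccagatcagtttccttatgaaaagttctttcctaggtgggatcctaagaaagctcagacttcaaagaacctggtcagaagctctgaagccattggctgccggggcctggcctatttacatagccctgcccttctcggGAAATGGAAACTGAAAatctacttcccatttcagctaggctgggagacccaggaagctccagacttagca
Isg15, chr4:156200769-156201068, minus strand: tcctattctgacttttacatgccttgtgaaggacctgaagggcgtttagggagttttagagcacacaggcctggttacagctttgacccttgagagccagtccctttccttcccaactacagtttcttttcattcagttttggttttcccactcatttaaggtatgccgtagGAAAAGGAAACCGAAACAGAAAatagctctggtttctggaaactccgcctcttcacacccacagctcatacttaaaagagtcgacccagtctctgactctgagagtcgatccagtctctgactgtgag
The Oas1a promoter held 2 overlapping matches and the Isg15 promoter 3, the first of them beginning 20 and 78 bases before the start. Isg15 stood at 28.3, 47.3 and 63.9 CPM in WT and 8.54, 11.2 and 49.4 CPM in null and passed only without null replicate 5 (log2 fold change -1.53, edgeR adjusted p 0.0212, against -1.10 and 0.0976 with all libraries).

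MHC class I genes, which are also induced by interferon, showed the same library apart. Of 11 tested, 0 rose and 7 fell (background 15.5% and 16.9%). With the offset 0 rose and 6 fell (background 7.22% and 8.12%), and the medians were -0.48 and -0.40. The summed level was 3986 to 5041 CPM in WT libraries. In null libraries it was 2396 to 2717 CPM, except in replicate 5, which had 4363 CPM. The immunoproteasome subunits Psmb8, Psmb9 and Psmb10 fell from 109.8 ± 13.4 to 65.7 ± 17.7 (offset -0.53), from 26.6 ± 2.82 to 14.4 ± 4.44 (offset -0.66) and from 36.3 ± 2.73 to 25.9 ± 2.63 CPM (offset -0.29), and the peptide editor Tapbp from 333 ± 21.3 to 263 ± 26.9 CPM (offset -0.34). Of 7 MHC class II genes 1 rose and 1 fell and none passed with the offset (medians 0.54 and 0.76). Here null replicate 6 decides the count: its median ratio to the WT mean was -0.41, against 0.32 to 1.18 in the other null libraries, and without it 4 rose and the median was 0.70. Without null replicate 2 the median was 0.32. The class II activator Ciita rose from 0.497 ± 0.289 to 1.07 ± 0.122 CPM (offset 0.85) and H2-DMb1 fell from 66.6 ± 3.55 to 55.5 ± 4.62 CPM (offset -0.10).

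**Figure D3:**
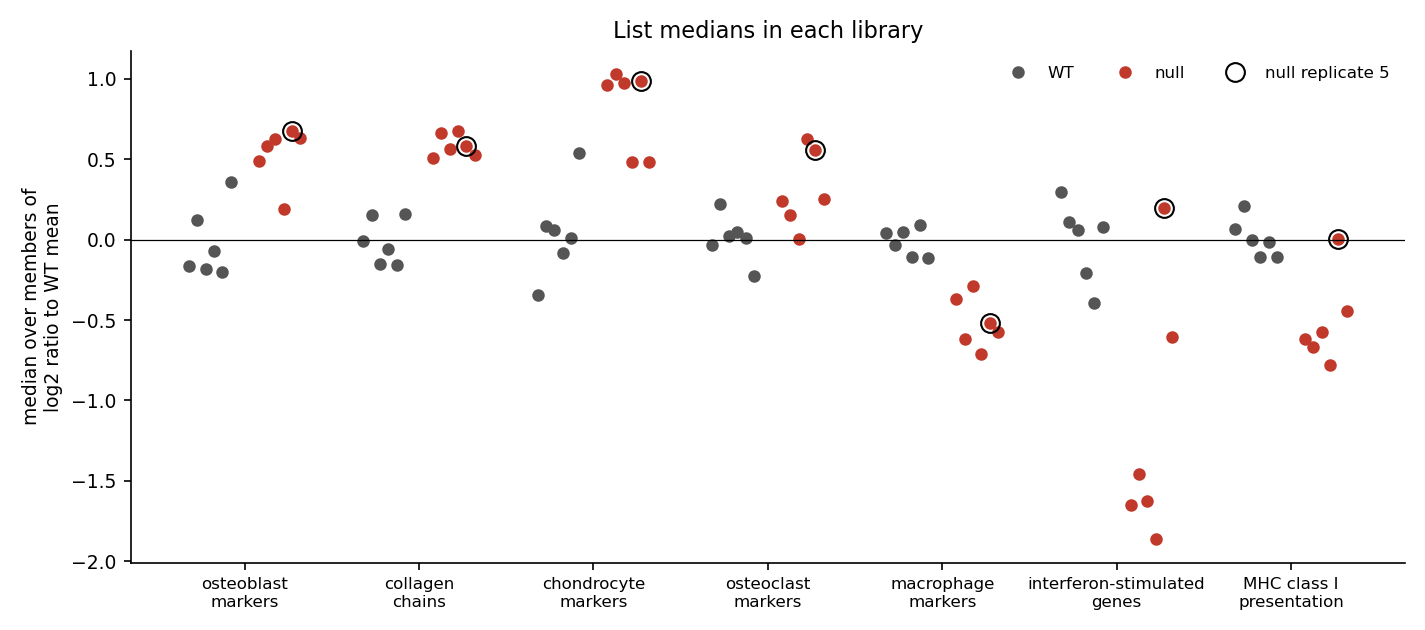
Median over the members of each list of the log2 ratio to the WT mean, in each WT (grey) and null (red) library, with null replicate 5 ringed. Null libraries lie above all WT libraries in collagen chains and below all of them in macrophage markers, while null replicate 5 lies within the WT range for interferon-stimulated and MHC class I genes.

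Signalling pathways of bone are read against the 15.5% of all genes higher and 16.9% lower in the first fit, and 7.22% and 8.12% with the offset. Of 35 Wnt pathway genes, 6 rose and 4 fell, and with the offset 5 rose and 4 fell (medians 0.09 and -0.07), shares near or below the background in the first fit. Without WT replicate 6, 2 fell. The secreted antagonist Frzb had 8.30, 15.3 and 18.0 CPM in WT and 21.3, 41.2 and 54.2 CPM in null, without overlap, and a log2 fold change of 1.40 (SE 0.22, edgeR adjusted p 0.000533), 1.35 with the offset. Another antagonist of the same family, Sfrp2, fell from 67.5 ± 13.5 to 37.6 ± 9.94 CPM (offset -0.78). The R-spondin receptor Lgr6 rose from 3.36 ± 0.965 to 6.84 ± 1.74 CPM (offset 0.86), and Dvl3, which carries the signal from the receptor, from 4.01 ± 0.602 to 6.04 ± 0.452 CPM (offset 0.58). These 4 genes passed in both fits.

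Of 38 BMP and TGF-β genes, 9 rose and 3 fell, and with the offset 2 rose and 3 fell (medians 0.15 and 0.06). Without WT replicate 4 or 5 or null replicate 1, only 1 fell. The ligand Tgfb2 had 103, 113 and 128 CPM in WT and 152, 158 and 208 CPM in null, with null replicate 5 the highest and no overlap. Its log2 fold change was 0.54 (0.43 with the offset). The receptor Bmpr2, the signal carrier Smad5 and the latent TGF-β binding protein Ltbp2 rose by 0.52, 0.45 and 0.57, but with the offset the values were 0.03, 0.15 and 0.30 and none passed.

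Of 10 hedgehog genes, 4 rose and 0 fell, and with the offset 1 rose and 0 fell (medians 0.32 and 0.12). Ptch1, the receptor and itself a target of the pathway, had 3.86, 4.47 and 6.05 CPM in WT and 6.97, 8.48 and 10.4 CPM in null. The groups did not overlap, and the log2 fold change was 0.87 (SE 0.14, edgeR adjusted p 0.000323), 0.54 with the offset. The transcription factors Gli3 and Gli2 and their inhibitor Sufu rose by 0.57, 0.44 and 0.33 and did not pass with the offset. Of 12 genes of the insulin-like growth factor system, 3 rose and 3 fell, and with the offset 2 rose and 3 fell (medians -0.22 and -0.16). The binding protein Igfbp4 had 449, 559 and 652 CPM in WT and 275, 365 and 394 CPM in null and fell by 0.65 on the log2 scale (offset -0.64). Igfbp6 fell from 182 ± 13.8 to 137 ± 6.74 CPM (offset -0.18), and the receptor Igf1r rose from 38.3 ± 2.19 to 59.0 ± 15.1 CPM (offset 0.42).

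Among genes described as miR-324 targets, Runx2 rose in the first fit, with the limits under the offset given above, and Smo did not pass. Smo, the hedgehog signal transducer, had 14.8 ± 1.81 against 15.6 ± 2.66 CPM, a log2 fold change of 0.08 (SE 0.12, edgeR adjusted p 0.65) and of -0.06 with the offset.

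Genes with a seed site in the longest 3′ UTR were counted among 13193 tested genes with an annotated 3′ UTR. Of 2229 genes with a site for miR-324-3p, 22.3% rose and 10.6% fell, against 14.3% and 18.2% of the 10964 without. Of 1214 genes with a site for miR-324-5p, 24.5% rose and 9.31% fell, against 14.7% and 17.7% of the 11979 without. Genes with a site also have longer transcripts, with a median of 3196 bases for the 3p arm and 3177.5 bases for the 5p arm, against 2374.5 and 2427 bases without a site. With the length offset the shares were 8.52% higher and 8.52% lower for the 3p arm (6.68% and 8.23% without a site), and 9.14% and 8.57% for the 5p arm (6.77% and 8.25% without). The median log2 fold changes with a site were then 0.01 and 0.03, against 0.00 without. Genes with 2 or more sites were fewer. Of 408 for the 3p arm, 10.5% were higher and 10.5% lower with the offset, and of 119 for the 5p arm, 14.3% and 9.24%. Their medians were 0.03 and 0.03, and their median transcript lengths 3539 and 3333 bases.

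Of the 5 genes next to Mir324, 1 passed. Gabarap (chr11:69991143-69994951), an autophagy protein, had 521, 529 and 574 CPM in WT and 376, 397 and 473 CPM in null, and was the one that fell. Its groups did not overlap, and the log2 fold change was -0.40 (-0.16 with the offset). Phf23, Dvl2, Acadvl and Dlg4 had log2 fold changes of -0.05, 0.07, 0.06 and 0.03 with SEs of 0.06, 0.08, 0.05 and 0.14. Dvl2 and Acadvl overlap on opposite strands around the hairpin, and without strand information their reads cannot be told apart. The list medians were 0.03 and 0.03.

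Genes of the ribosome and of oxidative phosphorylation, most of them short, were lower in the first fit and mostly did not pass with the offset. Of 80 ribosomal protein genes tested, 1 rose and 78 fell, but with the offset 1 rose and 9 fell, and the median went from -0.38 to -0.05. Of 79 subunits of oxidative phosphorylation, 2 rose and 61 fell, and with the offset 7 rose and 4 fell (medians -0.32 and 0.03). Rpl37a, Rps20 and Rpl32 had log2 fold changes of -0.51, -0.47 and -0.50, and of -0.14, -0.17 and -0.11 with the offset. Cox7c, Ndufa2 and Ndufc1 went from -0.43, -0.44 and -0.41 to -0.05, -0.07 and 0.01. Ribosomal protein genes have many near-identical copies, so their counts are uncertain.

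When all genes were ordered by transcript length and cut into 10 groups, the median log2 fold change went from -0.31 in the shortest, with a median length of 814 bases and 57.5% of genes lower, to 0.32 in the longest, with 6242 bases and 49.2% higher. With the offset all 10 medians lay within 0.01 of 0. The difference between longest and shortest group was 0.47 to 0.75 in the null libraries and -0.09 to 0.10 in the WT libraries, each taken against the WT mean. The mean transcript length weighted by TPM was 1615 to 1673 bases in WT and 1809 to 1867 bases in null osteoblast cultures, without overlap. In marrow macrophages the null libraries were at the lower end, with 1624 to 1687 bases in WT and 1461 to 1625 bases in null libraries. In RANK-L cultures the values were 1578 to 1717 and 1549 to 1648 bases. Mitochondrially encoded transcripts took 0.912% to 1.07% of counts in WT and 0.730% to 0.937% in null libraries. The 10 most abundant genes took 13.0% to 14.8% and 15.9% to 17.6%. No batch or RNA quality value is given in the labels, so such a cause and genotype cannot be told apart.

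**Figure D4:**
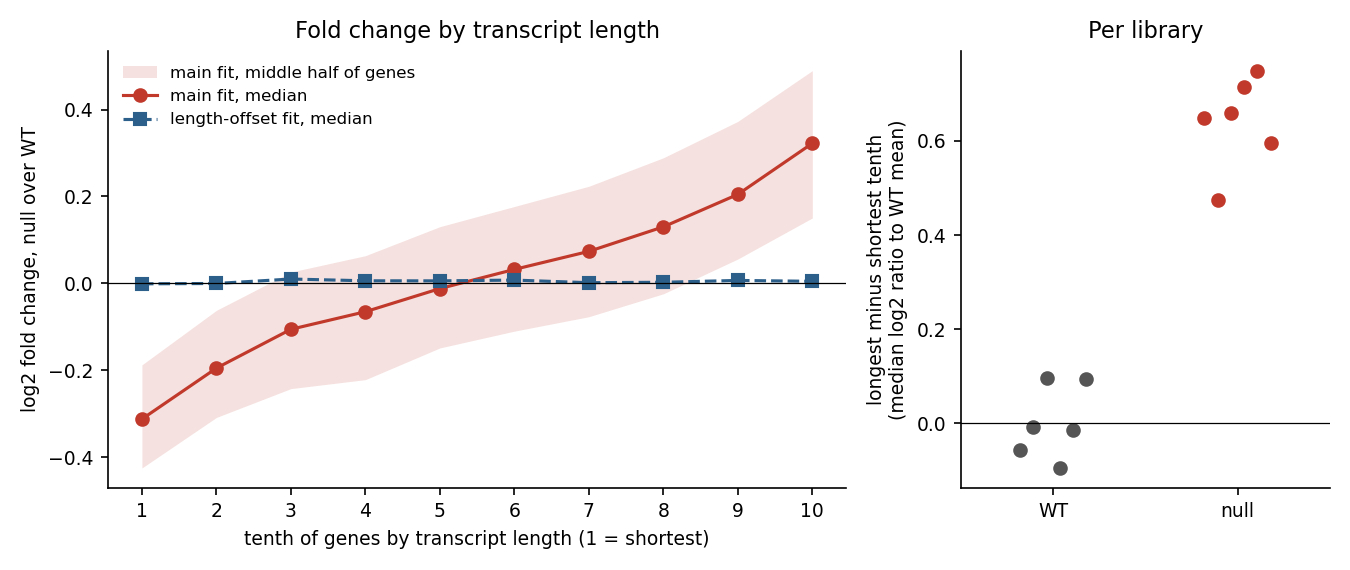
Left, the median log2 fold change, null over WT, in 10 groups of genes ordered by transcript length, in the first fit (red, with the quartiles shaded) and with the length offset (blue). Right, for each library, the median log2 ratio to the WT mean in the longest group minus that in the shortest: the null libraries lie between 0.47 and 0.75 and the WT libraries around 0.

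Other groups of genes changed little or in few members, against a background of 15.5% higher and 16.9% lower, and 7.22% and 8.12% with the offset. Of 20 cell cycle genes 1 rose and 3 fell, and with the offset 0 rose and 1 fell (medians 0.07 and 0.01). None rose without WT replicate 2 or 6 or null replicate 1 or 3, and 2 rose without WT replicate 4 or null replicate 2 or 5. The ribonucleotide reductase subunit Rrm2 fell from 101 ± 7.15 to 80.5 ± 5.40 CPM (offset -0.29) in both fits, while Cdk1, Pcna and Bub1 passed only in the first. Of 17 glycolysis genes 0 rose and 2 fell, Gapdh and Aldoa, and none passed with the offset (medians -0.15 and -0.12). These 2 calls are not stable: none fell without WT replicate 2, 3, 4 or 5 or null replicate 1 or 3, 1 fell without WT replicate 6 or null replicate 2 or 6, and 4 fell without null replicate 5. Without null replicate 6, 1 rose. Of 11 immediate early genes 1 rose and 1 fell, and with the offset 0 rose and 1 fell (medians 0.01 and 0.12). None rose without WT replicate 1, 3 or 4 or null replicate 4 or 5. The stress-induced factor Atf3 fell from 37.0 ± 2.23 to 28.0 ± 2.68 CPM (offset -0.33), and Jun rose only in the first fit. Of 12 genes of endoplasmic reticulum stress 1 rose and 1 fell (medians -0.07 and 0.01). The chaperone Hspa5 rose from 1504 ± 66.8 to 1748 ± 93.5 CPM (offset 0.20) in both fits, and Sdf2l1 fell only in the first.

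Markers of further cell types are read against the same background of 15.5% and 16.9%, and 7.22% and 8.12% with the offset. Of 8 mural cell markers 3 rose and 0 fell, and with the offset 2 rose and 0 fell (medians 0.49 and 0.20). Without null replicate 4, 1 fell. Rgs5, a pericyte marker, rose from 3.23 ± 1.54 to 10.6 ± 2.54 CPM (offset 1.53), and Cspg4 from 42.6 ± 5.53 to 72.0 ± 9.78 CPM (offset 0.39), while Pdgfrb passed only in the first fit. Of 8 marrow stromal markers 2 rose and 1 fell, and with the offset 1 rose and 1 fell (medians 0.35 and 0.20). Vcam1 fell from 171 ± 28.2 to 119 ± 16.3 CPM (offset -0.63) in both fits, and Pdgfra rose only in the first. Of 4 adipocyte markers tested 1 rose and 3 fell, and with the offset 1 rose and 2 fell (medians -0.51 and -0.38). When 1 library was left out of the first fit, 2 or 3 fell. Pparg and Cebpa, the factors of fat cell formation, fell from 3.03 ± 0.640 to 1.70 ± 0.359 (offset -0.74) and from 8.66 ± 1.21 to 5.83 ± 1.17 CPM (offset -0.59). Lipoprotein lipase (Lpl) rose from 41.8 ± 5.96 to 69.9 ± 24.7 CPM (offset 0.70).

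Of 2 neutrophil markers tested Csf3r fell, from 18.5 ± 2.42 to 12 ± 1.90 CPM (offset -0.69). Of 2 muscle markers Des rose, from 29.2 ± 4.74 to 47.2 ± 9.66 CPM (offset 0.63). None of the 2 lymphoid, 3 tendon and 4 endothelial markers tested passed in the first fit, and no red cell marker had enough counts to be tested. With the offset 1 endothelial marker, Kdr, passed (1.92 ± 0.544 against 1.41 ± 0.317 CPM).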

How the data were processed

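RNA-seq of 12 mouse osteoblast cultures (6 WT, 6 null) was used; groups came from the labels. Per the labels, total RNA was taken with the mirVana kit and libraries made with the NEB low input kit. Each deposited table lists transcripts with lengths, estimated counts and TPM made by the authors. The submitters' processing notes name kallisto, DESeq2 and the build GRCh38, without versions, although the identifiers are mouse Ensembl transcripts. Of 88198 transcripts, 97.5% matched GENCODE M21 (GRCm38) and 88.9% of those had the annotated length. Unmatched transcripts (0.629% to 0.737% of counts) were left out.

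Estimated counts were summed per gene (30205 genes), rounded, kept where filterByExpr passed them, and tested after TMM scaling with edgeR 4.0.16 (quasi-likelihood, robust; R 4.3.3), Benjamini-Hochberg, threshold 0.05. The length offset removed each library's lowess trend (span 0.3, prior count 2) of log2 ratio against transcript length. Both fits were tested on simulated data. Alternatives included DESeq2 1.42.0, limma 3.58.1 (voom), other filters, scalings and offsets, and leaving out each library. The closest pair of libraries in a group still differed by a chi-square of 6.71 per gene, so none was counted as a copy.

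Named genes were the 12 higher and 12 lower protein-coding genes with the smallest p that passed both fits at 5 CPM or more, up to 4 members of each list with the smallest p, and a fixed set of marker and neighbour genes. The samples, members, lists and rules were chosen with earlier results of these data known. Lists are described by counts and medians without a test. Seed sites were searched in the longest annotated 3′ UTR. Xist was not analysed here, and some members of the lists are not reported here.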

Additional observations from a re-analysis of the deposited data

Results flagged for a closer look

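In a group of 6 libraries, a library was singled out when its gap to the nearest other was large against the group's whole range (Dixon's criterion at the 95% level). Of 328 groups of values examined, 20 had such a library. Chance flags about 1 in 20 groups.

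Null replicate 5 stood apart in immune genes: among null libraries it had the highest Psmb8 (101 CPM, next 64.7), Psmb9 (23.0 CPM, next 15.1), Tapbp (315 CPM, next 266) and summed MHC class I level (4363 CPM, next 2717). The summed level includes the 3 genes. It also had the highest null value of Tgfb2, 208 CPM against 161 in the next library.

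WT replicate 6 stood apart in bone and cartilage genes, with the highest WT values of Alpl (394 CPM, next 229), Dmp1 (5.95 CPM, next 1.85), Col2a1 (346 CPM, next 199.9) and Col11a2 (21.8 CPM, next 10.7). In the same library the 10 most abundant genes took 14.8% of counts (next 13.5%), and it had the lowest Lgr6 (1.44 CPM) and Fig4 (22.2 CPM).

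Null replicate 6 had the lowest null values of Hpse (10.7 CPM) and Col1a2 (14814 CPM). WT replicate 2 had the highest WT values of Cxcl12 (242 CPM) and Csf3r (23.2 CPM). Single values far from their group were Frzb in WT replicate 5 (8.30 CPM), Ndufa2 in null replicate 2 (151 CPM), Hoxd10 in WT replicate 3 (1.13 CPM) and Hoxd8 in WT replicate 1 (3.65 CPM).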

How the results depend on the processing

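The correction for transcript length moved the counts most. Against 4420 genes (2115 higher, 2305 lower), the length offset gave 2087 (982 and 1105), an offset that also took GC content in 2283 (1084 and 1199), and the length offset with the replicate number as a block 1752 (792 and 960). The replicate block without the offset gave 4085 genes, 3900 of them shared with the first fit. Same-numbered libraries correlated between -0.119 and 0.149 in their deviations, and 2 of 6 WT libraries had their own number as best partner, so the numbers were not taken to pair the libraries. DESeq2 gave 4783 genes, limma-voom 4839, RLE scaling 4416, no filter 4086, an offset for average transcript length 3905 and a fit of all 36 libraries 3746, all within 1.5 times of the first count. Without 1 library the total ran from 3796 to 4355, and with the length offset from 1539 to 2180.

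Of 129 genes named in the text that passed, 102 kept their call with the length offset and 100 with the length and GC offset. With offset and block 88 did, with the block 127 and with DESeq2 129. Many of them were chosen because they passed both fits, so these numbers run high. Over all genes 37.65% of the calls of the first fit were kept with the length offset. With the length and GC offset 40.45% were kept, and with offset and block 32.58%. Among all genes, 6 passed both in the first fit and with the length offset but with opposite signs. Of the 145 genes named in the text, signs changed only in those that did not pass under the alternative. With the length offset, the length and GC offset and the offset with block, the log2 fold changes were -0.105, -0.107 and -0.101 for Csf1r, 0.0267, 0.0203 and 0.0287 for Phf23, -0.0469, -0.0692 and -0.0478 for Dvl2, -0.0608, -0.0848 and -0.0668 for Smo and 0.0134, 0.0156 and 0.0131 for Ndufc1. Leaving out a library moved Dlg4 between -0.0567 and 0.117, and with the offset Bglap between -0.317 and 0.158, Phf23 between -0.000977 and 0.0611, Bmpr2 between -0.00932 and 0.0806 and Smo between -0.129 and 0.000106. Interferon-stimulated genes that fell numbered 6, between 4 and 30 without 1 library, 17 with DESeq2 and 30 with limma-voom. The cause of these shifts was not tested. At these depths genes with few counts, such as Phex and Hoxd10, are the least precise.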

Other observations

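The observations here were chosen after the values were seen. Hox genes, which keep the positional identity of limb and trunk cells in culture, differed in individual members. Of 22 tested, 5 rose and 4 fell in both fits, against 6.03% and 6.2% of all genes. Hoxa11, which marks the middle segment of the limb, had 1.80, 4.51 and 5.93 CPM in WT and 0.108, 0.492 and 0.759 CPM in null, a log2 fold change of -3.17 (SE 0.34, edgeR adjusted p 1.72e-05). No null library reached the WT range. Its neighbour Hoxa10 fell from 48.1 ± 8.62 to 29.6 ± 3.51 CPM, Hoxd10 from 2.02 ± 0.462 to 0.347 ± 0.218 CPM and Hoxb2 from 2.25 ± 0.683 to 0.818 ± 0.30 CPM. The members that rose did so by less: Hoxc9 from 6.69 ± 0.816 to 9.36 ± 0.790 CPM, Hoxc10 from 14.6 ± 1.43 to 19.2 ± 0.663 CPM, Hoxc8 from 3.12 ± 0.273 to 4.21 ± 0.890 CPM, Hoxb1 from 1.43 ± 0.186 to 2.07 ± 0.369 CPM and Hoxd8 from 4.80 ± 0.598 to 6.28 ± 0.964 CPM. All 3 of the HoxC genes that passed rose, and both HoxA genes that passed fell. The labels name leg bones as the source and give no finer site for either group.

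Pikfyve and Rpe, named above in opposite directions, lie near each other on chromosome 1. Within 5 Mb of Pikfyve, 27 genes were tested, of which 8 rose and 3 fell in both fits (40.7%, against 12.2% of all genes). Adam23, a membrane protein of this stretch, rose from 13.6 ± 3.72 to 31.3 ± 3.48 CPM and Acadl, an enzyme of fatty acid oxidation, fell from 53.3 ± 1.78 to 38.2 ± 1.98 CPM, in neither case with overlap. Within 5 Mb of Hpse, 14 of 47 genes passed in both fits (29.8%), and within 5 Mb of Apobec3 22 of 181 (12.2%). Pikfyve, Hpse and Apobec3 were picked for their own calls and are counted in their windows. The call of Rpe, near Pikfyve, was also known beforehand. These shares are thus not independent of the choice. Within 5 Mb of the Mir324 hairpin, 5 of 139 genes rose and 9 fell (10.1%).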
